A study of Mus musculus with 4 samples.

Results

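The genes described here are 10 genes of the ATF4 axis and of serine synthesis: Atf4, Ddit3, Asns, Chac1, Trib3, Sesn2, Phgdh, Psat1, Psph and Shmt2. They were chosen by name, as every non-control probe whose gene name in the array files equals 1 of these symbols, which gave 14 probes of 55681 on the array and 10 genes of 36315. Expression was measured in 32D-EpoR cells, a mouse myeloid progenitor line that grows on interleukin-3 and carries an introduced erythropoietin receptor. All cells were first washed out of the WEHI medium on which the line is kept, a source of interleukin-3, and held in medium with serum. The Epo group then received erythropoietin (Epo), the hormone of red cell formation, at 10 U/ml, and the no Epo group received none. Each group has 2 samples, 1 from each of 2 experiments that used different passages of the line. The labels give no time for which Epo was present. The comparison asks how Epo, given to cells deprived of their growth factor, changed these transcripts.

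The product of Atf4 is a transcription factor whose translation is favoured when the initiation factor eIF2 is phosphorylated by stress-sensing kinases, one of which senses uncharged tRNA and another unfolded protein in the endoplasmic reticulum. ATF4 binds C/EBP-ATF response elements and drives genes of amino acid transport and synthesis, together with Ddit3, Trib3, Chac1 and Sesn2. The serine pathway makes serine from a glycolytic intermediate through Phgdh, Psat1 and Psph, and Shmt2 passes a carbon of serine to folate inside mitochondria. The pathway feeds nucleotide synthesis in proliferating cells and glycine for heme synthesis in erythroid cells. The arrays measured messenger RNA, so the translation of Atf4, the step at which it is best known to be controlled, was not measured.

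The array reads each gene through probes of 60 bases. Atf4, Psat1, Phgdh and Psph have 2 probes each, and the other 6 genes have 1. Below, a probe is named by the base of its transcript at which it starts, per the array annotation. The 4 probes shown are those of the 14 that start nearest the beginning of their transcript. They are shown because RNA was primed on the poly(A) tail, and 3 of them are the dimmer probe of their gene. Their bases are printed as deposited. They lie, on build mm9, at chr15:80086639-80086698 on the plus strand (Atf4), at chr10:126732518-126732821 on the plus strand (Ddit3, 304 bases of genome for 60 bases of probe, so the probe crosses an intron), at chr19:15991586-15991645 on the minus strand (Psat1) and at chr5:130272308-130272367 on the minus strand (Psph). The deposited annotation used here does not separate coding from untranslated exon, which was not analysed here.
Atf4 probe at base 504: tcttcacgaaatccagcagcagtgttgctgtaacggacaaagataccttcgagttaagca
Ddit3 probe at base 288: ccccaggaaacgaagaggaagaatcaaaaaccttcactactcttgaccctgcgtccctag
Psat1 probe at base 593: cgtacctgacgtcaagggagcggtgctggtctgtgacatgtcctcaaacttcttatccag
Psph probe at base 1123: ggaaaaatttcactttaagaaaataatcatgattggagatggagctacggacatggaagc

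The promoters of all 10 genes were matched in RefSeq (GRCm38.p6) as windows of 250 bases before to 50 bases after the start, with 11 windows because Psat1 has 2. The consensus response element, searched as TGATGNAA on both strands, was found in the windows of Asns, Chac1 and Trib3, and in 4.0% of the 32851 promoters of the same length. The form TGGTGCAA, which was searched after the promoters had been read, was found in Trib3 and in 1 Psat1 window, and in 0.5% of all promoters. The stretches that hold the matches are shown, with the matched bases in capitals. Those of Chac1 and Asns hold the consensus of the element through which ATF4 is known to act. Those of Trib3 and Psat1 hold only the form TGGTGCAA. That form was searched with the promoters known, so its presence in them is no separate result. They lie at chr2:119351019-119351086 on the plus strand (Chac1, 193 bases before the start), at chr6:7693210-7693262 on the minus strand (Asns, 23 bases before), at chr2:152344061-152344123 on the minus strand (Trib3, 33 bases before) and at chr19:15925158-15925225 on the minus strand (Psat1, 136 bases before). The Trib3 match to TGATGNAA lies after the start and is not shown.
Chac1: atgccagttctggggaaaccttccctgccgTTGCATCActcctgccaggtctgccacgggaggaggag
Asns: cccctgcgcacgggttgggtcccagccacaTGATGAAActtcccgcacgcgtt
Trib3: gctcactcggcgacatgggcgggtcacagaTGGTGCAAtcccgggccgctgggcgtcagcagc
Psat1: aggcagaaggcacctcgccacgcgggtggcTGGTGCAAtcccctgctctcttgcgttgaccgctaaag
The motif TTCNNNGAA, to which STAT factors bind, was found in the Shmt2 window and in 8.3% of all promoters. The E-box CACGTG was found in 0 of the 11 windows and in 7.2% of all promoters. A match is a description of these letters, and the absence of one says only that they are not in this window.

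All 4 arrays lay on 1 slide with 1 scan, so neither could differ between the groups. The 75th percentile of the processed intensity, to which each array was scaled, was 347 and 454 on the Epo arrays against 224 and 250 on the no Epo arrays. The correlation over genes, which do not count as replicates, was 0.995 for the Epo pair of arrays, 0.993 for the no Epo pair and 0.971 to 0.976 for arrays of unlike groups. Of 12 markers of myeloid progenitors such as 32D, 11 were well above background on all 4 arrays, and Kit was on 0. Of 11 erythroid markers 6 were, while 4 were on 0, among them Alas2, Hbb-b2 and Car2. The summed scaled signal of the myeloid markers was 198948 to 211008 with Epo against 226444 to 231638 without. Ctsg was the largest part, at 86302 and 96971 with Epo against 107924 and 110177 without. These markers did not move alike either. Csf2rb2 read 26698 and 27361 with Epo against 20229 and 18404 without, and Csf2rb and Ptprc were also higher on both Epo arrays. The summed scaled signal of the erythroid markers was 21035 to 25053 with Epo against 27015 to 28581 without. Most of that sum was Tal1 and Gata1. Tal1 overlapped between the groups (16202 and 12127 with Epo against 16023 and 12673 without). Gata1 read lower with Epo (6802 and 6688 against 10134 and 11462). Summed macrophage markers lay at 10793 to 10878 with Epo against 6019 to 9742 without, with 6 of 12 well above background on all arrays. The lowest sum comes from Lyz1 on 1 no Epo array, and without Lyz1 the sums were 6475 to 6871 with Epo against 5826 to 5998 without. The macrophage markers did not move alike. Adgre1 read 3333 and 3620 with Epo against 1698 and 1712 without. Csf1r read lower with Epo (1038 and 1081 against 1880 and 1778), and so did C1qc (862 and 813 against 1109 and 1112). Summed lymphoid markers lay at 1800 to 1884 with Epo against 3076 to 3093 without (6 of 14), and mast cell markers at 9049 to 9657 against 12126 to 12666 (6 of 10). Stromal and epithelial markers lay at 22608 to 25224 with Epo against 22359 to 26939 without (3 of 12). Most of that sum was Vim, at 21045 to 23743 with Epo against 21374 to 25905 without. The part of these other transcripts in the results below was not tested. Fewer cells with a transcript and less of it per cell cannot be told apart in bulk RNA.

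With Epo, Atf4 and Trib3 were higher. Ddit3 was lower relative to the array as a whole, a direction that turned without scaling between arrays, while Asns, Sesn2, Psat1, Psph and Shmt2 did not pass the test. Phgdh stood between, with 1 of its 2 probes past the threshold. In the fit across genes, in which each gene is its brightest kept probe, limma called 2 of the 9 tested genes higher at an adjusted p under 0.05, where 13.1% of the 17555 genes tested were called higher. It called 1 of the 9 lower, where 14.3% of all genes were. In the fit of every probe, 4 of 13 probes were higher (13.0% of 23735 probes) and 1 was lower (12.9%). The median change of the 9 genes was 0.10 on the log2 scale, against -0.062 over all genes tested. With 9 genes, these counts lie near the background of this comparison. Changes are Epo minus no Epo on the log2 scale after scaling, with the SE of the fit (2 samples per group) and p-values adjusted with the Benjamini-Hochberg method over all genes or all probes tested.

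**Figure D1:**
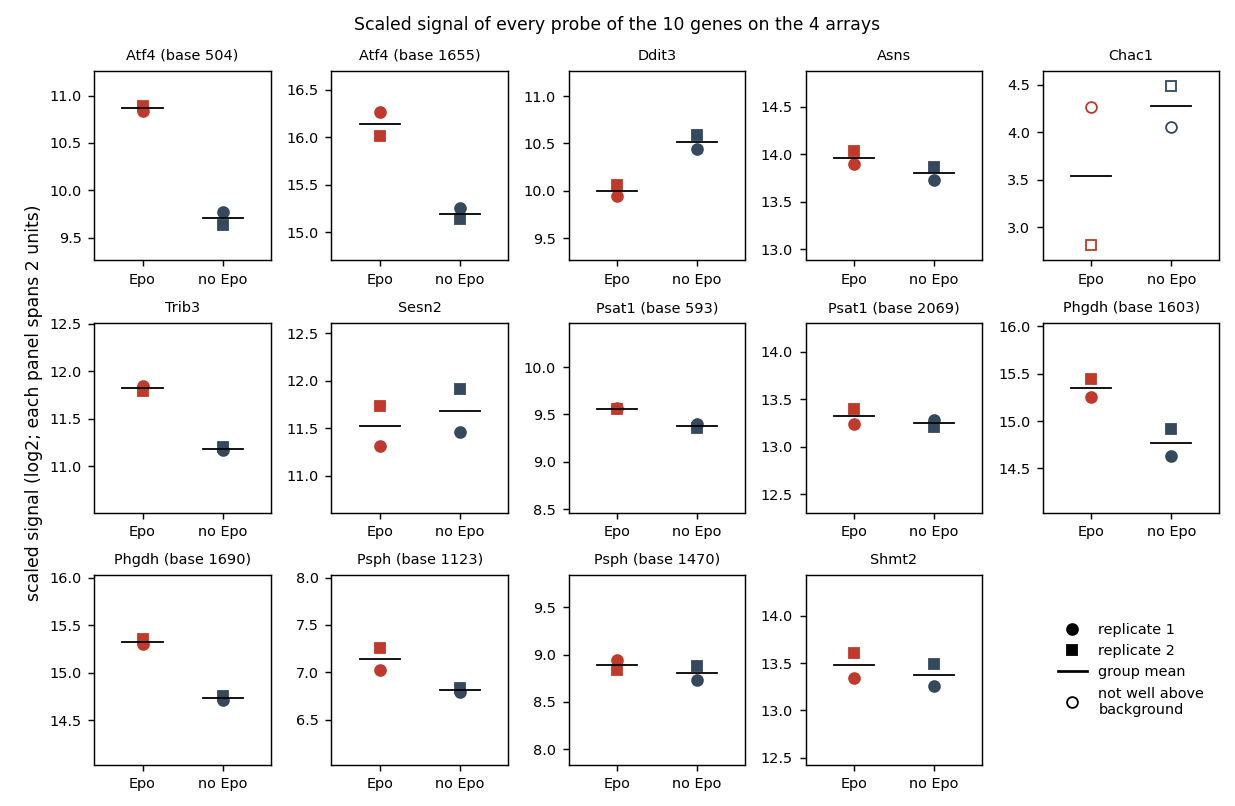
Scaled log2 signal (vertical axis, each panel spanning 2 log2 units) of all 14 probes on the 2 Epo and 2 no Epo arrays; circles are replicate 1, squares replicate 2, bars the group means and open symbols spots not well above background. Both Atf4 probes, Trib3 and both Phgdh probes have the Epo arrays above the no Epo arrays, Ddit3 has them below (on the scaled signal shown, not on the unscaled one), and Sesn2 and Shmt2 overlap.

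Atf4, the transcription factor of the axis, rose on both of its probes. Its probe at base 1655, at chr15:80087902-80087961 on the plus strand, had processed intensities of 89489 and 97795 on the Epo arrays, against 28563 and 29446 on the no Epo arrays. Its scaled log2 signal was 16.27 and 16.01 with Epo, against 15.26 and 15.14 without. Both Epo arrays lay above both no Epo arrays, before and after scaling. The group means were 16.14 ± 0.18 with Epo and 15.20 ± 0.084 without (SD, n = 2 each). In limma's gene fit the change was 0.94 ± 0.14, a 1.92-fold rise, with an adjusted p of 0.0155 and a 95% interval of 0.56 to 1.33. The 382 genes whose probe brightness lay within 0.5 log2 of that of this probe had a median change of -0.15. The call was lost without Epo replicate 1 (limma, adjusted p 0.0630).

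The dimmer Atf4 probe, 1203 bases of genome upstream, moved the same way. The probe at base 504 had intensities of 2076 and 2815 on the Epo arrays, against 639.9 and 649 on the no Epo arrays. Its scaled log2 signal was 10.84 and 10.89 with Epo, against 9.78 and 9.63 without. The Epo arrays were again the higher ones, with no overlap. In the fit of all probes it rose by 1.16 ± 0.12, or 2.24-fold (limma, adjusted p 0.0085), a change 0.22 above that of the brighter probe, which had an adjusted p of 0.0170. The level of a probe cannot be set against that of another, so only the changes of the pair were compared.

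Among the genes that ATF4 is known to drive, Trib3 rose. Trib3 encodes a pseudokinase that binds AKT and restrains ATF4 and CHOP in a feedback loop. Its probe at base 1991, at chr2:152163161-152163220 on the minus strand, had intensities of 4169 and 5251 on the Epo arrays, against 1683 and 1918 on the no Epo arrays. Its scaled log2 signal was 11.85 and 11.79 with Epo, against 11.17 and 11.20 without, so the groups were well apart. The means were 11.82 ± 0.040 with Epo and 11.18 ± 0.018 without (SD, n = 2 each). The change was 0.63 ± 0.11, or 1.55-fold (limma, adjusted p 0.0208, 95% interval 0.34 to 0.93). With 1 array left out the call was lost each time, with adjusted p-values of 0.0603 to 0.118 and changes in the same direction.

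Ddit3, which encodes CHOP, a transcription factor of the C/EBP family that promotes cell death under lasting stress, was lower with Epo relative to the other transcripts of the array. Its processed intensities were 1118 and 1581 on the Epo arrays, against 1016 and 1257 on the no Epo arrays. Before scaling, the Epo array of each experiment was thus the brighter one, and the median gene was brighter too. After scaling its log2 signal was 9.95 and 10.06 with Epo, against 10.44 and 10.59 without, and both Epo arrays lay below both no Epo arrays. The means were 10.00 ± 0.078 with Epo and 10.52 ± 0.10 without (SD, n = 2 each). The scaled change was -0.51 ± 0.12, or 1.43-fold lower (limma, adjusted p 0.0445, 95% interval -0.84 to -0.18). Without scaling it was 0.23 with an adjusted p of 0.532, against a median of 0.68 over all genes in that fit, so the direction of Ddit3 rests on the scaling. The call was lost with any of the 4 arrays left out (adjusted p 0.0731 to 0.222) and with normexp background correction (-0.38, adjusted p 0.0760).

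Asns and Sesn2 did not pass the test. Asns, the asparagine synthetase, read by a probe at chr6:7625171-7625228 on the minus strand, had a scaled log2 signal of 13.90 and 14.03 with Epo, against 13.73 and 13.87 without. The Epo arrays were above the no Epo arrays by a narrow gap, and within each experiment the difference was 0.17 and 0.16. Its change was 0.16 ± 0.13 (limma, adjusted p 0.376, 95% interval -0.17 to 0.50). Sesn2, read at chr4:132048858-132048917 on the minus strand, encodes a leucine-binding protein that restrains the growth kinase complex mTORC1. Its scaled log2 signal was 11.31 and 11.73 with Epo, against 11.46 and 11.91 without. The groups overlapped, since replicate 2 was the higher array in both, and its change was -0.16 ± 0.23 (limma, adjusted p 0.624, 95% interval -0.78 to 0.45). Without scaling the Sesn2 value was 0.58 and did not pass either (adjusted p 0.115). Both intervals leave room for changes in either direction.

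Chac1, which encodes a glutathione-degrading enzyme and is read at chr2:119179990-119180049 on the plus strand, was not well above background on any of the 4 arrays and entered no test. Its intensities of 21.7 and 10.4 with Epo, and of 12.1 and 18.4 without, have no order. The Chac1 promoter holds a consensus response element, as shown above, and no transcript level can be given at this signal over background.

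In the serine pathway, both probes of Phgdh read higher on the Epo arrays, and 1 of them passed the test. Phgdh encodes the dehydrogenase of the first, committed step of the pathway. The probe at base 1603, at chr3:98117303-98117361 on the minus strand, had scaled log2 signals of 15.26 and 15.44 with Epo, against 14.63 and 14.92 without. The probe at base 1690 (chr3:98117215-98117274), which lies 28 bases of genome beyond the end of the first, had 15.30 and 15.35 with Epo, against 14.71 and 14.75 without. Neither probe had overlapping groups. The spread between the no Epo arrays was the larger one on the first probe, with means of 15.35 ± 0.13 with Epo and 14.77 ± 0.21 without (SD, n = 2 each).

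The changes of the Phgdh pair were nearly equal, and the test parted them. In the gene fit, which takes the probe at base 1603, Phgdh changed by 0.58 ± 0.16, or 1.49-fold, with an adjusted p of 0.0587 (limma, 95% interval 0.16 to 0.998). In the fit of all probes, the probe at base 1690 changed by 0.60 ± 0.12 and passed (limma, adjusted p 0.0272), while the probe at base 1603 did not (adjusted p 0.0631). With the replicate number as a block the Phgdh gene passed too (limma, adjusted p 0.0216). The call of the probe at base 1690 was lost with any of the 4 arrays left out (adjusted p 0.0772 to 0.143). Within the experiments the change of the gene was 0.63 and 0.52. The 450 genes whose probe brightness lay within 0.5 log2 had a median change of -0.092.

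Psat1, the aminotransferase of the second step, and Psph, the phosphatase of the last, did not pass on any probe. The brighter Psat1 probe, at base 2069 and chr19:15979622-15979681 on the minus strand, had scaled log2 signals of 13.24 and 13.40 with Epo, against 13.28 and 13.21 without. These overlapped, with differences of -0.038 and 0.19 within the experiments and a change of 0.075 ± 0.12 (limma, adjusted p 0.680, 95% interval -0.25 to 0.40). The dimmer Psat1 probe, at base 593, had 9.57 and 9.55 with Epo, against 9.40 and 9.36 without, with no overlap. Its change of 0.18 ± 0.12 did not pass in the fit of all probes (limma, adjusted p 0.298).

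Psph showed the same arrangement of its probes. The brighter one, at base 1470 and chr5:130271441-130271500 on the minus strand, had scaled log2 signals of 8.94 and 8.84 with Epo, against 8.73 and 8.88 without. The groups overlapped, and the change was 0.086 ± 0.12 (limma, adjusted p 0.633, 95% interval -0.24 to 0.41). The dimmer one, at base 1123, had 7.03 and 7.26 with Epo, against 6.80 and 6.84 without, with no overlap and a change of 0.32 ± 0.14 (limma, adjusted p 0.149). In all 4 pairs of probes the dimmer probe had the larger change, by 0.22 in Atf4, 0.11 in Psat1, 0.020 in Phgdh and 0.24 in Psph. Whether these gaps exceed the error of the probes was not tested.

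Shmt2, the mitochondrial enzyme that turns serine into glycine and a folate-bound carbon, is read by 1 probe at chr10:126954811-126954870 on the minus strand. It had scaled log2 signals of 13.35 and 13.60 with Epo, against 13.25 and 13.49 without. The groups overlapped, since replicate 2 was the higher array in both. Its change was 0.10 ± 0.16 (limma, adjusted p 0.653, 95% interval -0.32 to 0.52). Within the experiments it was 0.094 and 0.11. Under other scalings of the arrays the small changes of Psat1, Psph and Shmt2 fell on either side of 0.

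**Figure D2:**
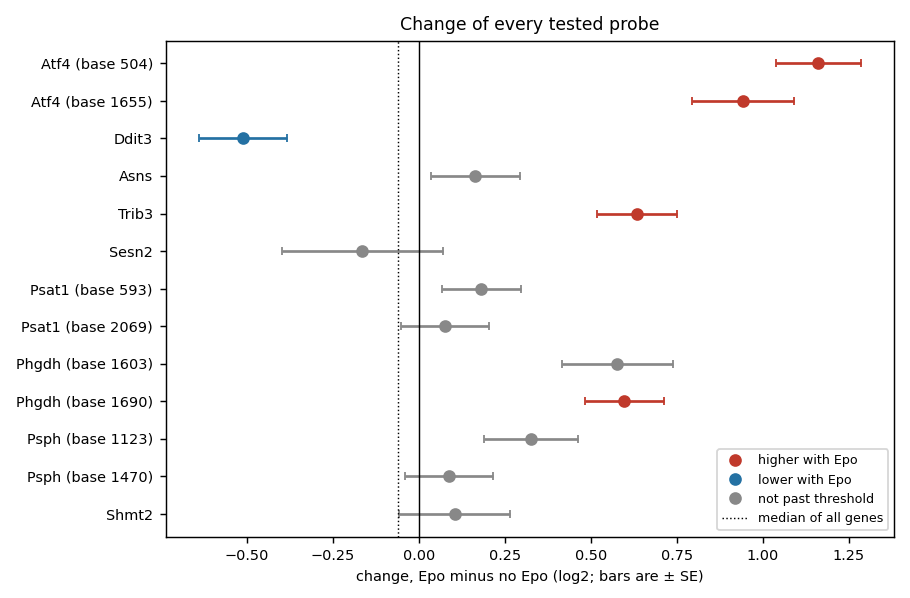
Change of each of the 13 tested probes, Epo minus no Epo, on the log2 scale (horizontal axis), with bars of ± SE from limma's fit of all probes; colours mark an adjusted p under 0.05 and the dotted line is the median of all genes. Both Atf4 probes lie farthest to the right at 1.16 and 0.94, Trib3 and the Phgdh pair lie between 0.58 and 0.63, and Ddit3 lies farthest to the left at -0.51 (0.23 without scaling).

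Counted by arrays, 8 of the 13 tested probes had both Epo arrays above both no Epo arrays, where 31.6% of all probes tested did. Ddit3 was the 1 probe with both Epo arrays below, where 36.7% of all probes were. The rest overlapped. The place of each gene among all changes does not depend on scaling that shifts a whole array by a constant. On that ranking Atf4 lay at the 93.1st percentile of the genes tested, Trib3 at 86.9, Phgdh at 85.2 and Asns at 66.9. Shmt2 at 62.6, Psph at 61.3, Psat1 at 60.6 and Sesn2 at 41.1 lay around the middle, and Ddit3 lay at 18.7. The targets of ATF4 were thus spread over both sides of the median gene.

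**Figure D3:**
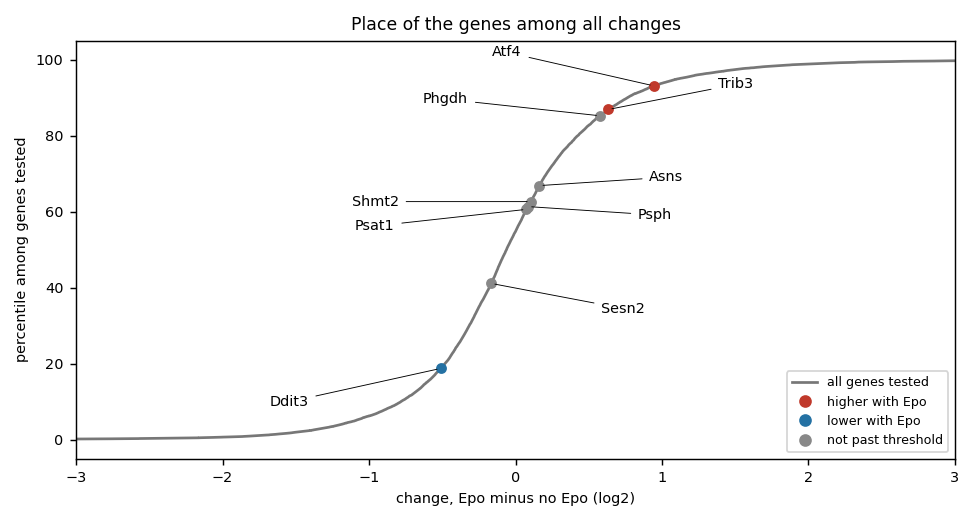
Percentile among the genes tested (vertical axis) against change, Epo minus no Epo, on the log2 scale (horizontal axis); the grey curve is all genes and the points are the 9 tested genes. Atf4, Trib3 and Phgdh sit at percentiles 93.1, 86.9 and 85.2, and Ddit3 at 18.7.

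Set against Atf4 on the same arrays, the estimated changes of its target genes lay at different distances. Atf4 is here its brighter probe, and its dimmer probe changed by 0.22 more. Against the dimmer probe each difference would be lower. These differences are free of scaling that shifts a whole array by a constant, but not of quantile normalization. With the latter Atf4 changed by 1.08 and Trib3 by 0.51. As reported, the change of Trib3 minus that of Atf4 was -0.31, with -0.34 and -0.28 within the experiments. For Phgdh the difference was -0.37, and for Asns it was -0.78. Shmt2 at -0.84, Psph at -0.86 and Psat1 at -0.87 lay close together. For Sesn2 it was -1.11, and for Ddit3 it was -1.46, with -1.51 and -1.40 within the experiments. These differences were not tested. By the Euclidean distance of the 4 scaled log2 values after removal of each gene's mean, the 3 tested genes nearest to Atf4 were Abitram at 0.0304, Gm12444 at 0.0356 and Mtrr at 0.0461. Their changes were 0.95, 0.93 and 0.95 (limma, adjusted p 0.0143, 0.0161 and 0.0129). Without Epo replicate 1 these calls were lost, with changes of 0.84, 0.81 and 0.84. The 3 genes were chosen by these same array values, so their likeness to Atf4 follows from the choice and is no separate result. With normexp background correction the change of Mtrr, a dim probe, was 0.18 and did not pass (adjusted p 0.302).

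Other genes of the pathway were counted by list, and each count stands beside the 13.1% of all genes called higher and the 14.3% called lower, or the 46.9% and 2.07% without scaling. Of 32 known targets of ATF4, 27 were tested. The list holds amino acid transporters and enzymes, and also targets with other roles, such as Vegfa, Atf3 and Ndrg1. The 9 that rose were Slc7a1, Vegfa, Slc1a5, Atf3, Gpt2, Slc38a2, Nupr1, Aldh18a1 and Herpud1. The 4 that fell were Pck2, Ndrg1, Ddit4 and Jdp2, none of them an amino acid transporter. The median change of the list was 0.15 against -0.062 over all genes. Without scaling 15 were higher and 0 lower (limma, 1 lower at an unadjusted p under 0.05), so the lower calls rest on the scaling. The 9 genes called higher stayed higher there, in a fit where 46.9% of all genes were called higher. With 1 array left out 4 to 6 were higher and 2 to 5 lower. Slc7a1, a transporter of arginine and lysine, had scaled log2 signals of 14.30 and 14.46 with Epo, against 12.60 and 12.67 without. It rose by 1.74 ± 0.12 (limma, adjusted p 0.00484), and Vegfa, an angiogenic growth factor, by 1.55 ± 0.13 (adjusted p 0.00552). Jdp2, a transcriptional repressor of the AP-1 family, changed by -1.44 ± 0.11 (adjusted p 0.00525) and Ddit4, an inhibitor of mTORC1, by -1.37 ± 0.14 (adjusted p 0.00762). Without scaling both stayed below 0, at -0.69 and -0.62, and no longer passed.

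Among 18 cytosolic aminoacyl-tRNA synthetases, which charge tRNA with amino acids and several of which ATF4 is known to drive, limma called 3 higher and 0 lower, with a median change of 0.23. At an unadjusted p under 0.05 the counts were 6 and 0, with the replicate number as a block 7 and 0, and without scaling 15 and 0. Rars rose by 1.37 ± 0.18 (limma, adjusted p 0.0116) and Tars by 1.21 ± 0.12 (adjusted p 0.00703). Among 16 genes of the eIF2 kinases, eIF2 and its exchange factor eIF2B, which act upstream of Atf4 translation, 5 were higher and 0 lower, with a median of 0.36. The list also holds Gcn1, Impact, Ppp1r15a and Ppp1r15b. The 5 called higher were subunits of eIF2 or eIF2B (Eif2b3, Eif2s2, Eif2s1, Eif2b4 and Eif2b1). None of the kinases Eif2ak1, Eif2ak2, Eif2ak3 and Eif2ak4 passed in the fit as reported. For the list the counts were 8 and 0 at an unadjusted p under 0.05, 9 and 0 with the block and 13 and 0 without scaling. With 1 array left out 2 synthetases and 2 to 4 genes around eIF2 were higher. Eif2b3, a subunit of eIF2B, rose by 1.66 ± 0.14 (adjusted p 0.00557), and Eif2s2, a subunit of eIF2, by 0.99 ± 0.18 (adjusted p 0.0223). The Eif2s2 call was lost without Epo replicate 1 (adjusted p 0.0748) and without no Epo replicate 2 (0.0519).

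Around serine and glycine, 22 of 24 listed enzymes and transporters of one-carbon and glycine metabolism were tested, of which 10 rose and 3 fell, with a median change of 0.50. Without scaling 17 were higher and 0 lower (limma, also 0 at an unadjusted p under 0.05), and with 1 array left out 5 to 7 were higher and 1 to 2 lower. The folate carriers Slc19a1, of the cell membrane, and Slc25a32, of mitochondria, rose most. Slc19a1 had scaled log2 signals of 12.26 and 12.28 with Epo, against 10.52 and 9.26 without. The groups were apart although the no Epo arrays differed widely, and the change was 2.38 ± 0.43 (limma, adjusted p 0.0223). Slc25a32 had 11.14 and 10.95 with Epo, against 8.99 and 8.50 without, a rise of 2.30 ± 0.205 (adjusted p 0.00622). Mat2b, a subunit of the S-adenosylmethionine synthetase, changed by -1.02 ± 0.11 (adjusted p 0.00827). Without scaling Mat2b changed by -0.27 and did not pass.

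Of the genes known to lie downstream of CHOP, 8 of 9 listed were tested, of which 1 rose and 3 fell, with a median change of -0.048. Without scaling the balance turned, with 3 higher, 1 lower and a median of 0.70. Dnajb9, a chaperone of the endoplasmic reticulum, rose by 1.20 ± 0.125 (limma, adjusted p 0.00765). The pro-apoptotic BH3-only genes Bcl2l11 and Bbc3 changed by -1.50 ± 0.13 (adjusted p 0.00603) and -1.32 ± 0.18 (adjusted p 0.0125). Without scaling Bcl2l11 stayed past the threshold (-0.76, adjusted p 0.0406) and Bbc3 did not (-0.58, adjusted p 0.117). Bbc3 and Dnajb9 also stand in lists of p53 targets and of XBP1 and ATF6 targets.

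Of 11 tested of 12 listed paralogs of the 10 genes, 2 rose and 2 fell, with a median change of -0.17, which is near the share over all genes in each direction. Without scaling 5 were higher and 0 lower (limma, also 0 at an unadjusted p under 0.05). Atf3, a stress-induced factor of the ATF family, rose by 1.30 ± 0.13 (limma, adjusted p 0.00733), and Trib1, the relative of Trib3 that degrades C/EBP alpha, by 0.90 ± 0.135 (adjusted p 0.0149). Cebpa, a myeloid factor of the CHOP family, changed by -0.74 ± 0.14 (adjusted p 0.0267) and Sesn3, a relative of Sesn2, by -0.64 ± 0.125 (adjusted p 0.0259). Without scaling Cebpa changed by 0.0097 and Sesn3 by 0.10. The call of Trib1 was lost without Epo replicate 2 (adjusted p 0.0593). Those of Cebpa and Sesn3 were lost without either Epo array or no Epo replicate 2 (adjusted p 0.0606 to 0.120 and 0.0863 to 0.127).

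The neighbouring stress pathways were compared by list. The XBP1 and ATF6 branch acts beside ATF4 in the unfolded protein response, and 11 of its 21 listed genes rose and 1 fell, with a median change of 0.56. With 1 array left out 4 to 7 were higher and 0 lower, and with the percentile over detected probes 7 were higher and 1 lower. Without scaling 18 were higher and 0 lower (limma, also 0 at an unadjusted p under 0.05). Xbp1, whose spliced form drives secretory pathway genes, rose by 1.57 ± 0.11 (limma, adjusted p 0.0049). Ern1, which encodes the kinase and nuclease IRE1 that splices Xbp1, changed by -0.54 ± 0.13 (adjusted p 0.0403), with 0.21 without scaling and a call lost with any array left out (adjusted p 0.0581 to 0.175). Whether the Xbp1 probe parts the spliced from the unspliced form was not analysed here.

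Sesn2 is also known as a target of p53 and of NRF2. Of 14 tested of 16 listed p53 targets, 2 rose and 4 fell, with a median change of -0.28. Without scaling the balance turned, with 4 higher, 0 lower (limma, 1 at an unadjusted p under 0.05) and a median of 0.46, and with any 1 array left out 2 were higher and 2 lower. Tigar, a fructose bisphosphatase, rose by 2.33 ± 0.17 (limma, adjusted p 0.00506) and Aen, an apoptotic nuclease, by 1.30 ± 0.125 (adjusted p 0.00679). Trp53inp1, a p53 cofactor, changed by -1.46 ± 0.12 (adjusted p 0.00578) and did not pass without scaling (-0.72, adjusted p 0.0528). Of 10 tested of 11 listed NRF2 targets, 2 rose and 1 fell, with a median change of 0.054, against 6 higher and 0 lower without scaling and 0 to 2 in each direction with 1 array left out. Txnrd1, the thioredoxin reductase, rose by 1.15 ± 0.23 (adjusted p 0.0275) and Hmox1, the heme oxygenase, by 0.99 ± 0.14 (adjusted p 0.0131). Srxn1, the sulfiredoxin, changed by -0.94 ± 0.155 (adjusted p 0.0184), and by -0.19 without scaling. Calls were lost without 1 array for Txnrd1 (Epo replicate 1, adjusted p 0.0729, and no Epo replicate 2, 0.0557), Hmox1 (Epo replicate 1, 0.0504) and Srxn1 (Epo replicate 2, 0.0663).

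**Figure D4:**
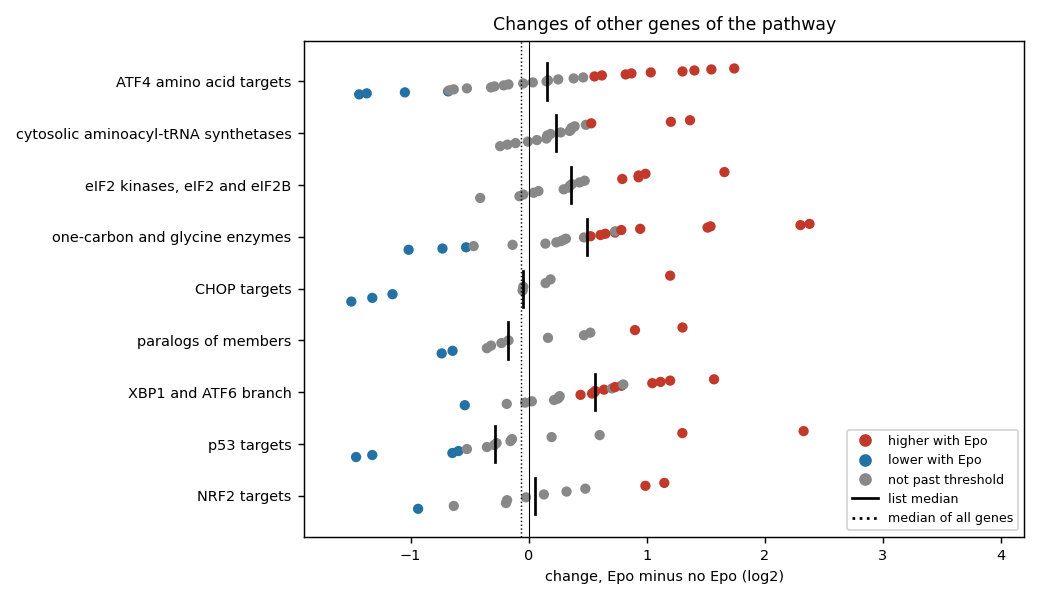
Change of each tested gene, Epo minus no Epo, on the log2 scale (horizontal axis) in 9 lists of related genes; red and blue points passed an adjusted p of 0.05 in limma's gene fit, black bars are list medians and the dotted line is the median of all genes. The medians run from -0.28 (p53 targets) to 0.56 (XBP1 and ATF6 branch), and each of the 9 lists but the synthetases and the eIF2 genes holds calls in both directions on these scaled values.

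Under 13 other ways of processing, the call of Atf4 held in 11, that of Trib3 in 8 and that of Ddit3 in 6. Phgdh, not called in the gene fit as reported, passed in 7. Without scaling between arrays 7 of the 9 genes were higher and 0 lower (limma, also 7 and 0 at an unadjusted p under 0.05), where 46.9% of all genes were called higher and 2.07% lower. In that fit Asns changed by 0.91, Shmt2 by 0.85, Psph by 0.83 and Psat1 by 0.82, against the median of 0.68 over all genes. With the replicate block 3 of the 9 genes were higher and 1 lower, where 19.9% and 23.2% of all genes were. With no filter on dim probes 0 genes passed, for any of the 10 or elsewhere on the array. At an unadjusted p under 0.05 that fit had 2 of these genes higher and 1 lower, and 2528 and 4620 of all genes.

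**Figure D5:**
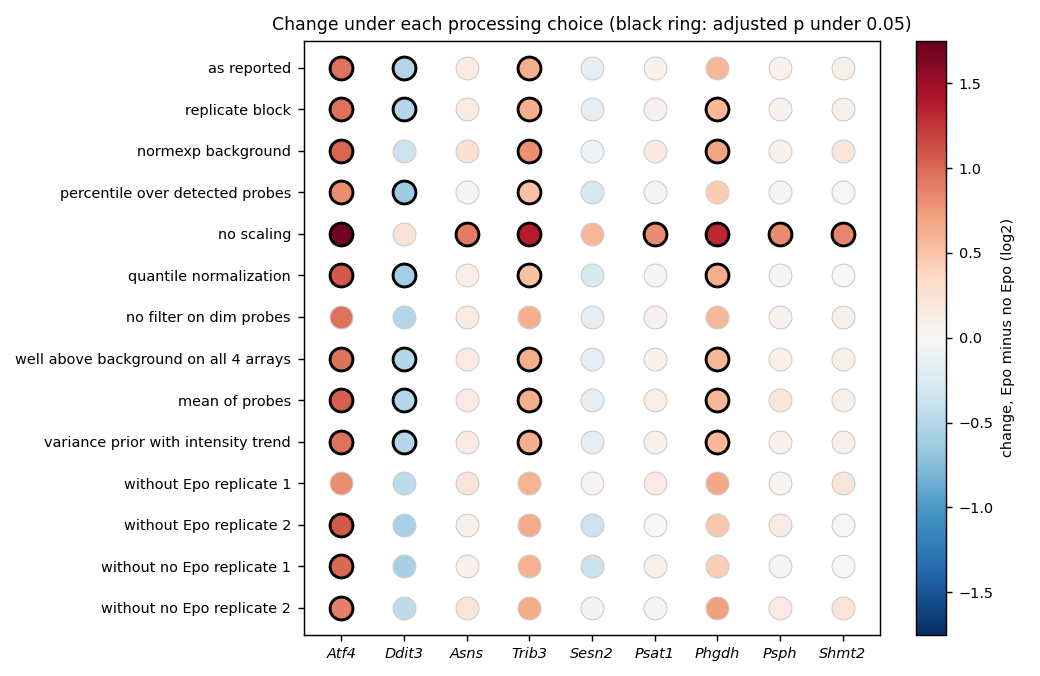
Change of the 9 tested genes, Epo minus no Epo (colour, log2 scale), as reported and under 13 alternatives (rows); a black ring marks an adjusted p under 0.05 in limma's gene fit. Atf4 keeps its colour in all rows and its ring in 11 of the 13 alternatives, and without scaling Ddit3 turns positive at 0.23 and 7 genes carry a ring.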

How the data were processed

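Total RNA of 4 samples (2 Epo, 2 no Epo) was labelled with Cy3 and hybridised to single-colour Agilent arrays, per the labels' protocols. The deposited values are the processed intensity of 62976 spots per array, with raw mean and local background intensity beside it, from Feature Extraction 10.1.1.1 on build mm9, per the file headers. No spot was saturated. Limma is named, with no version, per the submitters' processing notes.

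From these, log2 of the processed intensity was taken, each array's 75th percentile over the 59305 non-control spots was subtracted and the mean of the 4 percentiles added back. Spots flagged as outliers by the scanner software were dropped, at a cost of 9 probes, and repeat spots were averaged to 1 value per probe. Probes had to be well above background on both Epo arrays or on both no Epo arrays, and 23735 probes of 17555 genes passed. A gene is its kept probe with the highest mean. Gene names were updated through RefSeq tables of GRCm38.p6 (26413 probes by accession, 3859 by symbol, 735 by synonym, 24674 kept as in the files). The difference between Epo and no Epo was tested two-sided in limma 3.58.1 under R 4.3.3 (lmFit, then eBayes, with 2 residual and 4.57 total degrees of freedom), with Benjamini-Hochberg adjustment over all genes or all probes and a threshold of 0.05. The smallest change that passed was 0.43, at a median SE of 0.145. With the replicate number as a block the median SE was 0.0793. The number of arrays limits the precision in both fits. The fit was tested on simulated data.

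The replicate numbers were read as the 2 independent experiments of the design text. The deviations of same-numbered samples from the group means correlated at 0.386 over all genes, and a fit that takes the replicate number as a block was run as an alternative. The other alternatives covered background correction (normexp, offset 50), scaling, the filter on dim probes, the choice of probe, the variance prior and leaving out each array.

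The members and the gene lists were chosen with earlier results of these data known. Named beside the members are, from each of 9 lists, the up to 2 genes that rose most and the up to 2 that fell most among those past the threshold that moved alike in both experiments, and the 3 tested genes nearest to Atf4. Of the genes this rule gives, 1 is not reported here. Lists were described by counts and medians, with no set test. The 9 lists overlap and hold 145 distinct genes. Motifs were searched in RefSeq promoters of GRCm38.p6, and no coordinates were moved between that build and mm9.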

Additional observations from a re-analysis of the deposited data

How the results depend on the processing

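Over the 13 alternatives, 81 of 117 values for the 9 tested genes kept their direction and their side of the threshold, 13 kept their direction and lost a call, 11 gained one and 12 changed sign. For the 29 other named genes, 318 of 377 kept both, 56 lost a call and 3 changed sign. Without scaling between arrays the sign turned for Ddit3 (0.23), Sesn2 (0.58), Cebpa (0.0097), Sesn3 (0.10) and Ern1 (0.21). That alternative leaves in the brightness of the arrays, which moved the median of all genes to 0.68. It gave 7 genes and 11 probes of the members higher and 0 lower (also 0 at an unadjusted p under 0.05 in limma), 8231 genes of the array higher and 364 lower, and 90 of the listed genes higher and 1 lower. With the percentile over detected probes Psat1 (-0.052), Psph (-0.040) and Shmt2 (-0.022) changed sign, and the array had 1876 genes higher and 3657 lower, against 2302 and 2502 as reported. With quantile normalization Psat1 (-0.035) and Shmt2 (-0.0043) changed sign. Leaving out 1 array turned Sesn2 without Epo replicate 1 (0.046) and without no Epo replicate 2 (0.060), within a range of -0.39 to 0.060. It turned Psat1 without Epo replicate 2 (-0.0046, range -0.0046 to 0.15) and Shmt2 without Epo replicate 2 (-0.023) and without no Epo replicate 1 (-0.013). None of these passed. For changes near 0, the cause was not tested.

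With the replicate number as a block, limma called 3497 genes higher and 4068 lower, and 3 members higher and 1 lower. The block changed no call among the members other than that of Phgdh. With normexp background 0 member genes and 0 member probes were lower, with 1 of each at an unadjusted p under 0.05. Without a filter on dim probes limma called 0 genes, 0 probes of the members and 0 listed genes in either direction. At an unadjusted p under 0.05 these were 2528 and 4620 genes, 4 and 0 probes and 40 and 18 listed genes. In that fit 36310 genes were tested. Leaving out each array in turn gave 0 to 1 member genes and 1 to 2 member probes higher, with 0 of either lower (limma, 0 to 1 genes and probes at an unadjusted p under 0.05). The 0 genes higher, without Epo replicate 1, stood beside 3 at an unadjusted p under 0.05. It gave 1098 to 2017 genes higher and 1175 to 1946 lower, and 20 to 30 listed genes higher and 7 to 12 lower. In these fits the group with 1 array is assumed to vary like the other.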
